A study of Mus musculus with 4 samples.

Results

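The nucleotide receptors of the P2 family were followed in mouse peritoneal macrophages that had received LPS or PBS. The set holds 10 genes taken by symbol from the deposited table, *P2rx1*, *P2rx4*, *P2rx7*, *P2ry1*, *P2ry2*, *P2ry6*, *P2ry10*, *P2ry12*, *P2ry13* and *P2ry14*, out of 19938 genes with a symbol of their own. They were measured by 14 of the 26423 probes of the array, 5 of them for *P2rx7* and 1 for each of the others. The cells, peritoneal phagocytes of C57BL/6 mice, were cultured with LPS at 100 ng/ml, the endotoxin of Gram-negative bacteria, or with PBS as the control, and RNA was taken after 6 h. Each group has 2 arrays, Mouse OneArray Plus, labelled with the single dye Cy5. The labels call them biological replicates without naming separate mice or cultures, so p-values cover only the spread of these samples, which may be technical. In such bulk samples, fewer cells of a type and less RNA per cell cannot be told apart.

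P2 receptors sense nucleotides that cells release or lose when they are stressed or damaged. P2X receptors are cation channels that open when ATP binds, whereas P2Y receptors are G protein-coupled receptors for ATP, ADP, UTP, UDP or UDP-sugars. In macrophages, P2X7 is known as the ATP-gated trigger of potassium efflux, NLRP3 inflammasome assembly and IL-1β release, and P2Y receptors are known for roles in chemotaxis and phagocytosis.

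Deposited signals are linear brightness values per probe. For the comparison they were quantile-normalized and converted to log2, the brightest probe stood for a gene, and limma compared LPS with PBS with Benjamini-Hochberg adjustment over all 19938 genes. A probe was above background where its deposited detection p was under 0.05. Before normalization, LPS replicate 1 was the dimmest array, with a median signal of 683 against 1026 to 1054 on the other arrays and 55.8% of probes above background against 61.7% to 63.3%. Of 11 macrophage markers 10 were measured, and 9 of these were above background on all 4 arrays. Other cell types were represented in part. Above background on all 4 arrays were 3 of 7 B cell markers (*Cd79a*, *Cd79b* and *Pax5*, but on no array *Ms4a1*), 4 of 7 T cell markers (among them *Cd3e*, but on no array *Cd3d*) and 3 of 6 mast cell markers (among them *Tpsb2*, but on no array *Kit*). The same held for 1 of 4 NK cell markers (*Eomes*, but on no array *Ncr1*), 2 of 7 neutrophil markers (*Mmp8* and *Retnlg*, but on no array *S100a8*), 3 of 4 eosinophil markers (on no array *Ccr3*) and 1 of 6 dendritic cell markers (*Zbtb46*, but on no array *Flt3*). Of 5 mesothelial markers 4 were above background on all arrays, and their summed normalized signal was 24958 and 66385 with PBS against 17591 and 58560 with LPS, higher in replicate 2 of both groups. The part of these cells in the values of the receptors was not tested.

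Of the 10 receptor genes, 9 were above background on all 4 arrays, and *P2ry10* was above it on none. At an adjusted p under 0.05 from limma, *P2ry14* rose with LPS, *P2ry1* fell, and the other 8 did not pass the test. That is 1 of 10 higher where 3.22% of all genes were called higher, and 1 of 10 lower where 2.32% of all genes were called lower. Both LPS arrays lay above both PBS arrays for 3 members, *P2ry13*, *P2ry14* and *P2ry10*, where 32.2% of all genes did so. Of these, *P2ry10* was not above background and its deposited signals overlapped, so its order is not a measured one. They lay below for 2 members, *P2ry1* and *P2ry6*, where 27.5% of all genes did so. The remaining 5 overlapped between the groups. The median log2 fold change was −0.05 over the members, with *P2ry10* included, and 0.04 over all genes.

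**Figure D1:**
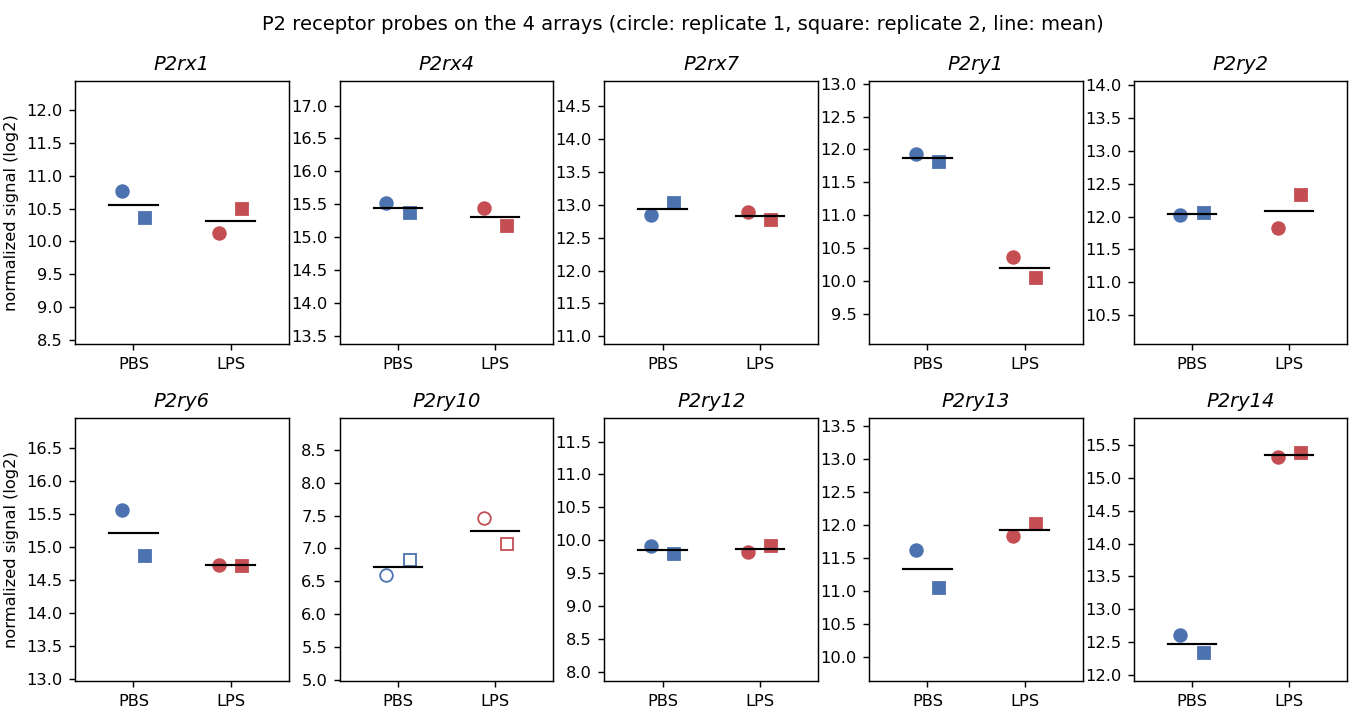
Normalized log2 signal (vertical axis) of the brightest probe of each P2 receptor gene on the PBS and LPS arrays, with circles for replicate 1, squares for replicate 2, lines for the group means and open symbols for a probe not above background on any array. Every panel spans the same number of log2 units, and the groups lie far apart relative to their spread for *P2ry1* and *P2ry14* in the 4-array comparison.

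*P2ry14* encodes a Gi-coupled receptor for UDP-glucose and UDP. Its deposited signal was 7366 and 5429 with PBS against 37281 and 45434 with LPS. After normalization the log2 signal was 12.61 and 12.34 with PBS against 15.32 and 15.38 with LPS. Both LPS arrays were high, close to each other and well clear of both PBS arrays. The group means were 12.47 ± 0.19 (SD, n = 2) with PBS and 15.35 ± 0.04 (SD, n = 2) with LPS. The log2 fold change was 2.88 (standard error 0.22), or 7.34-fold with a 95% interval of 5.00 to 10.8, and an adjusted p of 0.00587 from limma. By log2 fold change *P2ry14* ranked 197 from the highest of the 19938 genes. The call was lost when PBS replicate 1 (limma adjusted p = 0.0507) or PBS replicate 2 (limma adjusted p = 0.0797) was left out, with log2 fold changes of 3.02 and 2.82.

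The other Gi-coupled members are receptors for ADP. *P2ry13* had log2 signals of 11.63 and 11.05 with PBS and 11.83 and 12.02 with LPS. Both LPS arrays were above both PBS arrays, but the PBS arrays differed from each other by more than the nearer arrays of the 2 groups did. The log2 fold change was 0.59 (95% interval −0.11 to 1.29, adjusted p = 0.248 from limma). *P2ry12*, the ADP receptor that antiplatelet drugs target and a marker of microglia in the brain, had deposited signals of 1041 and 982 with PBS and 651 and 1066 with LPS. Its normalized levels overlapped, with a log2 fold change of 0.01 (95% interval −0.51 to 0.53, adjusted p = 0.971 from limma). The interval of *P2ry14*, 2.32 to 3.43 on the log2 scale, lay above those of both ADP receptors, although the difference between the genes was not itself tested.

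*P2ry1* encodes a Gq-coupled receptor for ADP. Its deposited signal was 4560 and 3846 with PBS against 941 and 1160 with LPS. The log2 signal after normalization was 11.94 and 11.82 with PBS against 10.36 and 10.05 with LPS. Both LPS arrays were low, still above background, and clear of the PBS arrays. The means were 11.88 ± 0.08 (SD, n = 2) with PBS and 10.20 ± 0.22 (SD, n = 2) with LPS. The log2 fold change was −1.67 (standard error 0.22), which is 3.19-fold lower with a 95% interval of 2.14 to 4.74, and the adjusted p was 0.0239 from limma. Leaving out any 1 of the 4 arrays lost the call, with limma adjusted p-values of 0.0525 to 0.178 and log2 fold changes of −1.82 to −1.54.

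The other Gq-coupled members did not pass the test. *P2ry6* encodes the UDP receptor that is known to drive phagocytosis by microglia. Its log2 signals were 15.56 and 14.86 with PBS against 14.73 and 14.72 with LPS, where PBS replicate 1 alone was high and the other 3 arrays lay close together. The log2 fold change was −0.49 (95% interval −1.24 to 0.27, adjusted p = 0.349 from limma), and it was −0.15 without PBS replicate 1. *P2ry2* encodes a receptor for ATP and UTP that is known as a sensor of the find-me signal of dying cells. It had deposited signals of 4897 and 4486 with PBS and 2649 and 5330 with LPS, where the low value belongs to the dimmest array. Its log2 fold change was 0.04 (95% interval −0.61 to 0.68, adjusted p = 0.940 from limma).

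The 3 P2X channels did not pass the test, and each had LPS arrays that overlapped the PBS arrays. *P2rx7* was measured by 5 probes. Its brightest probe had deposited signals of 8582 and 8363 with PBS and 5878 and 7213 with LPS, and normalized log2 signals of 12.84 and 13.03 with PBS and 12.89 and 12.76 with LPS. The raw values were lower on both LPS arrays, whereas the normalized values overlapped. The log2 fold change was −0.11 (95% interval −0.65 to 0.43, adjusted p = 0.759 from limma). The other 4 probes gave log2 fold changes of −0.26 to −0.15, none of them past the test over all probes. After normalization LPS replicate 2 was the lowest array on all 5 probes. In the deposited signals LPS replicate 1 was the lowest on some of them, the brightest included. The dimmest of them was above background on the 2 PBS arrays only, with detection p-values of 0.0268 and 0.0292 against 0.0627 and 0.0716 with LPS. The 5 probes are not replicates of each other, since they read the same 4 RNA samples.

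**Figure D2:**
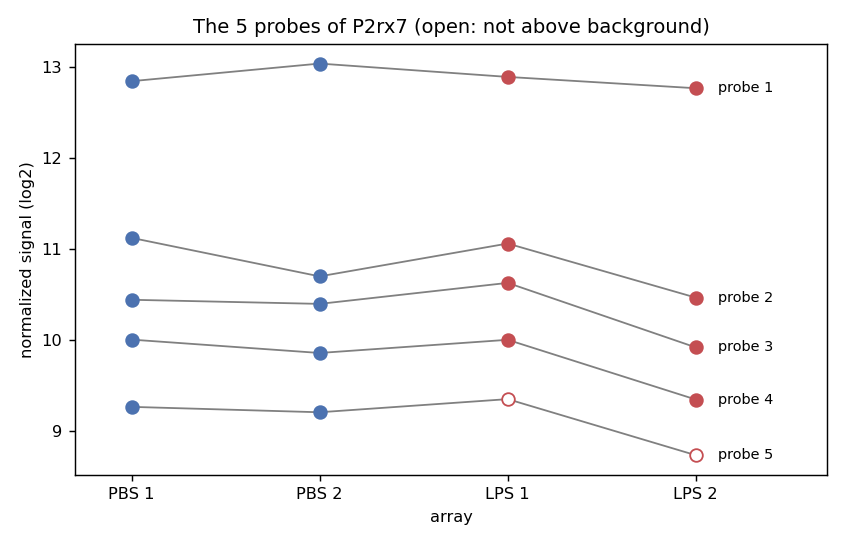
Normalized log2 signal (vertical axis) of the 5 *P2rx7* probes, numbered from the brightest, on each array (horizontal axis), with a line joining the points of 1 probe and open symbols where the probe was not above background. All 5 probes are lowest on LPS replicate 2, and their log2 fold changes run from −0.26 to −0.11.

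*P2rx4* encodes the channel that sits mainly in lysosomes of macrophages and microglia. It had deposited signals of 54492 and 36634 with PBS and 40429 and 39162 with LPS, and a log2 fold change of −0.14 (95% interval −0.71 to 0.42, adjusted p = 0.708 from limma). *P2rx1* encodes a fast-desensitizing channel known from platelets and smooth muscle. It had deposited signals of 1941 and 1440 with PBS and 813 and 1565 with LPS, and a log2 fold change of −0.25 (95% interval −0.92 to 0.42, adjusted p = 0.578 from limma). For each P2X channel the interval includes 0 and excludes a rise or fall of the size seen for *P2ry14* or *P2ry1*.

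*P2ry10* carries a P2Y name but encodes a receptor for lysophosphatidylserine that is known from lymphocytes. Its deposited signal was 99 and 167 with PBS against 104 and 141 with LPS, with detection p-values of 0.763 to 0.929. No fold is therefore given in the text, and the value drawn in the figures is not a measured change. *P2ry10b*, its neighbour on chromosome X, was above background on all 4 arrays, with log2 signals of 13.37 and 13.32 with PBS and 13.89 and 13.29 with LPS and a log2 difference of 0.25 (limma adjusted p = 0.592). The deposited table gives that probe the older name A630033H20Rik.

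**Figure D3:**
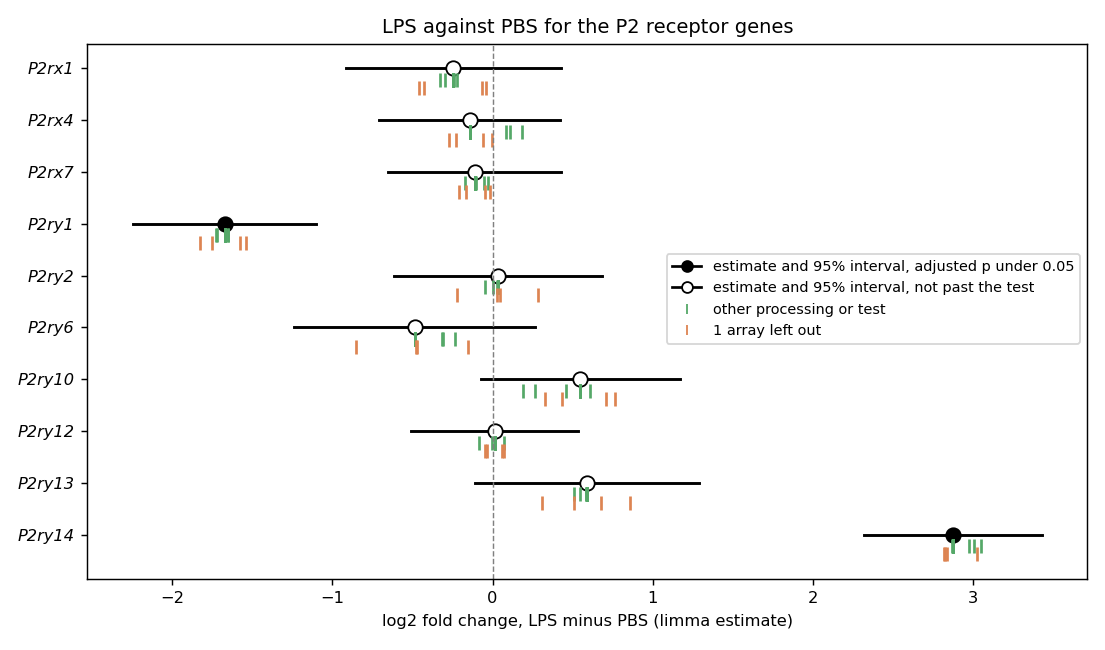
Log2 fold change of each P2 receptor gene (LPS minus PBS, horizontal axis) with its 95% interval from limma, filled where the adjusted p was under 0.05, and small ticks for the values under other processing and with 1 array left out. The ticks of *P2ry14* lie between 2.82 and 3.05 and those of *P2ry1* between −1.82 and −1.54, while those of *P2rx4*, *P2ry2* and *P2ry12* fall on both sides of 0. The probe of *P2ry10* was not above background on any array, so its point and interval do not show a measured change.

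None of the 6 other P2 receptor genes measured passed the test. The brightest probe of *P2rx6*, which encodes a P2X subunit, had log2 signals of 16.67 and 15.92 with PBS and 14.77 and 15.10 with LPS. Both LPS arrays were below both PBS arrays, with a log2 difference of −1.36 (limma adjusted p = 0.0839), but its other probe was not above background on any array. *P2rx2* (−0.33), *P2rx3* (0.24) and *P2rx5* (−0.46) were above background with overlapping groups, although the other probes of *P2rx2* and *P2rx3* were not above background on any array, and *P2ry4* was not above background on any array.

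The genes of *P2ry14*, *P2ry13*, *P2ry12* and *P2ry1* lie near each other on mouse chromosome 3, in this order in the RefSeq annotation of GRCm38.p6. *Igsf10* and *Mbnl1* lie between *P2ry12* and *P2ry1*. The 2 receptor genes that passed the test stand at the ends of this run and moved in opposite directions. *P2rx7* and *P2rx4* are direct neighbours on chromosome 5, as are *P2ry6* and *P2ry2* on chromosome 7. None of 13 neighbouring genes passed the test, and their log2 fold changes ran from −0.81 to 0.66. *Mbnl1*, a splicing regulator next to *P2ry1*, was at −0.80 on the log2 scale without passing the test (limma adjusted p = 0.0969).

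RefSeq promoter windows of GRCm38.p6, each from 250 bases before to 50 after a start site, were matched for 9 of the 10 members and gave 15 windows. *P2ry6* had no entry. They are shown for the 2 receptors that passed the test, 5′ to 3′ on the strand of the gene. These are 2 of the 4 *P2ry14* windows, those with a match to the search letters TGANTCA (in capitals), and the *P2ry1* window. The first lies at chr3:59153443-59153742 (minus strand), the second at chr3:59131279-59131578 (minus strand) and the third at chr3:61002535-61002834 (plus strand).
P2ry14 outermost start: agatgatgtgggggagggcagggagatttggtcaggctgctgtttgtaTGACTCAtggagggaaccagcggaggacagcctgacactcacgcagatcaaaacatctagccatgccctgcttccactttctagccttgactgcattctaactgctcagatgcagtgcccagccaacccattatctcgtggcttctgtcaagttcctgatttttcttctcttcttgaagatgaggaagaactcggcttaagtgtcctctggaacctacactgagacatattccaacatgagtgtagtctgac
P2ry14 inner start: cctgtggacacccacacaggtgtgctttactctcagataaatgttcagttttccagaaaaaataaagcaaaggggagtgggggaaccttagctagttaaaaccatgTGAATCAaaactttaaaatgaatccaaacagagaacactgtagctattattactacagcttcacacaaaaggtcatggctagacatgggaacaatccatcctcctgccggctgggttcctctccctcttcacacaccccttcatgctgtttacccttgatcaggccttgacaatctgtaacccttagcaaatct
P2ry1 start: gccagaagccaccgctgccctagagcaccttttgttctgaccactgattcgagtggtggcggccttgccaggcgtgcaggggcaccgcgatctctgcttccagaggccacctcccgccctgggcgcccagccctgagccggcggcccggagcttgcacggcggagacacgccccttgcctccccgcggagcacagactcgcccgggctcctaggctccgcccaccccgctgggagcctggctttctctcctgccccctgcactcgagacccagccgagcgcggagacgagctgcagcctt

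The motifs were chosen after the values were seen and were searched on both strands. The AP-1 letters TGANTCA, with any base at N, were found in 4 of the 15 windows and in 7.81% of 32851 promoter windows of the genome. They read TGACTCA at *P2ry14* (−202 from the start site) and TGAGTCA at *P2rx7*. At *P2ry14* (−144 from the start site) and *P2ry10* they read TGAATCA, without the central C or G of the AP-1 consensus. The PU.1 letters GGAAGT were found in 5 of the 15 windows, of *P2rx7*, *P2ry10*, *P2ry12* and *P2ry14*, and in 23.8% of all windows. The interferon-stimulated response element (GAAA, any 2 bases, GAAA, in 3.44% of all windows), the STAT letters TTCNNNGAA (8.30%) and the NF-kB consensus (4.51%) were in none of the 15. The *P2ry1* window held none of the 5 motifs, and the AP-1 letters were also present at *P2rx7*, whose 5 probes did not pass the test, and at *P2ry10*, which was not above background. Such matches are descriptions of letters, not of binding.

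Genes that work with these receptors were counted in the same comparison. Of 17 genes of nucleotide release, 13 were above background on at least 1 array. Among the 17, 2 rose and 0 fell, where 3.22% of all genes rose and 2.32% fell. The median log2 fold change was 0.09, which is the value of a gene not above background on any array. It was 0.16 with a filter on dim probes, −0.16 with scaling to the 75th percentile and −0.23 from the second deposited table. With normexp, with a filter on dim probes and with the mean of all probes, 1 of the genes fell. *Calhm6*, of the calcium homeostasis modulator channels, had deposited signals of 1216 and 919 with PBS and 104053 and 152099 with LPS, a rise of 6.98 on the log2 scale (limma adjusted p = 0.00167). *Lrrc8c*, a subunit of volume-regulated anion channels, rose by 3.36 on that scale (adjusted p = 0.00460 from limma). *Panx1*, the pannexin channel through which dying cells release ATP, had a log2 fold change of 0.35 and *Slc17a9*, the vesicular nucleotide transporter, one of −0.72, neither past the test.

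Of 24 genes of extracellular nucleotide and adenosine turnover 22 were measured, of which 2 rose and 0 fell, where 3.22% and 2.32% of all genes did, with a median of 0.17. *Enpp4*, an ectonucleotidase of the cell surface, had deposited signals of 1148 and 1147 with PBS and 15084 and 20401 with LPS, a rise of 4.15 on the log2 scale (limma adjusted p = 0.00263). *Adora2a*, the Gs-coupled adenosine receptor that is known to restrain inflammatory cells, had 1029 and 385 with PBS and 10441 and 9824 with LPS. The 2 PBS arrays differed widely, and 1 of them was not above background. Its log2 fold change was 4.30 with a standard error of 0.54 (adjusted p = 0.0209 from limma). *Entpd1* and *Nt5e*, the ectoenzymes CD39 and CD73 that degrade ATP stepwise to adenosine, did not pass the test. The log2 fold change of *Entpd1* was −0.75 (limma adjusted p = 0.245), and *Nt5e* was above background on 1 PBS array only, so no fold is given in the text.

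Among the genes of IL-1 maturation downstream of P2X7, 5 of 11 measured rose and 0 fell, where 3.22% of all genes rose and 2.32% fell, with a median log2 fold change of 1.00, while *P2rx7* itself did not pass the test. On the log2 scale *Il1b* rose by 6.88, *Il1a* by 5.16, *Il18* by 2.72 and *Casp1*, the protease that cleaves the IL-1β precursor, by 1.57, with adjusted p-values of 0.00167, 0.00499, 0.0265 and 0.0232 from limma. The fifth was *Gsdmd*, the pore-forming gasdermin D, with 1.37 (adjusted p = 0.0299 from limma), which is named after its value was seen. *Nlrp3*, the sensor of the inflammasome, had deposited signals of 303 and 646 with PBS and 576 and 937 with LPS, and its log2 fold change of 1.00 did not pass (adjusted p = 0.167 from limma). For 3 others, *Kcnk6* (−1.24), *Pycard* (−0.94) and *Txnip* (−0.64), both LPS arrays lay below both PBS arrays, where 27.5% of all genes did so, and none of them passed the test. *Pycard* encodes ASC, the adaptor of the inflammasome, and *Kcnk6* the potassium channel TWIK2. With 1 array left out, 2 or 3 of the 11 passed the test, and 3 passed with scaling to the 75th percentile.

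Among 25 genes of G proteins, phospholipase C and calcium release, 1 rose and 1 fell, which is near the 3.22% and 2.32% of all genes, with a median of 0.13. These were the G protein subunits *Gnb4* (1.59, adjusted p = 0.0220 from limma) and *Gng2* (−1.76, adjusted p = 0.0324 from limma). The subunits that couple P2Y receptors to their pathways, *Gnaq* and *Gnai2*, had log2 fold changes of −0.06 and 0.24 and did not pass the test. Neither *Gnb4* nor *Gng2* was called from the second deposited table. Of the 7 receptor kinases and arrestins, which switch off and internalize G protein-coupled receptors, 1 fell and 0 rose, where 2.32% of all genes fell and 3.22% rose. *Arrb1*, which encodes β-arrestin 1, had deposited signals of 12689 and 11923 with PBS and 836 and 1388 with LPS, a log2 difference of −3.24 (limma adjusted p = 0.00436). Both LPS arrays lay below both PBS arrays for 6 of the 7, where 27.5% of all genes did so. The median was −0.79, and it was −0.42 with the mean of all probes of a gene. Of the 6, *Grk4* was not above background on any array, so its order is not a measured one. *Arrb2* was at −0.79 (limma adjusted p = 0.144) and *Grk2* at 0.03 (limma adjusted p = 0.942) on the log2 scale, neither past the test. The calls for *Adora2a*, *Casp1*, *Gsdmd*, *Il18*, *Gnb4* and *Gng2* were lost in at least 3 of the 4 fits with 1 array left out, and those for *Lrrc8c*, *Enpp4* and *Arrb1* without PBS replicate 2 only. *Calhm6*, *Il1b* and *Il1a* passed the test with each array left out.

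**Figure D4:**
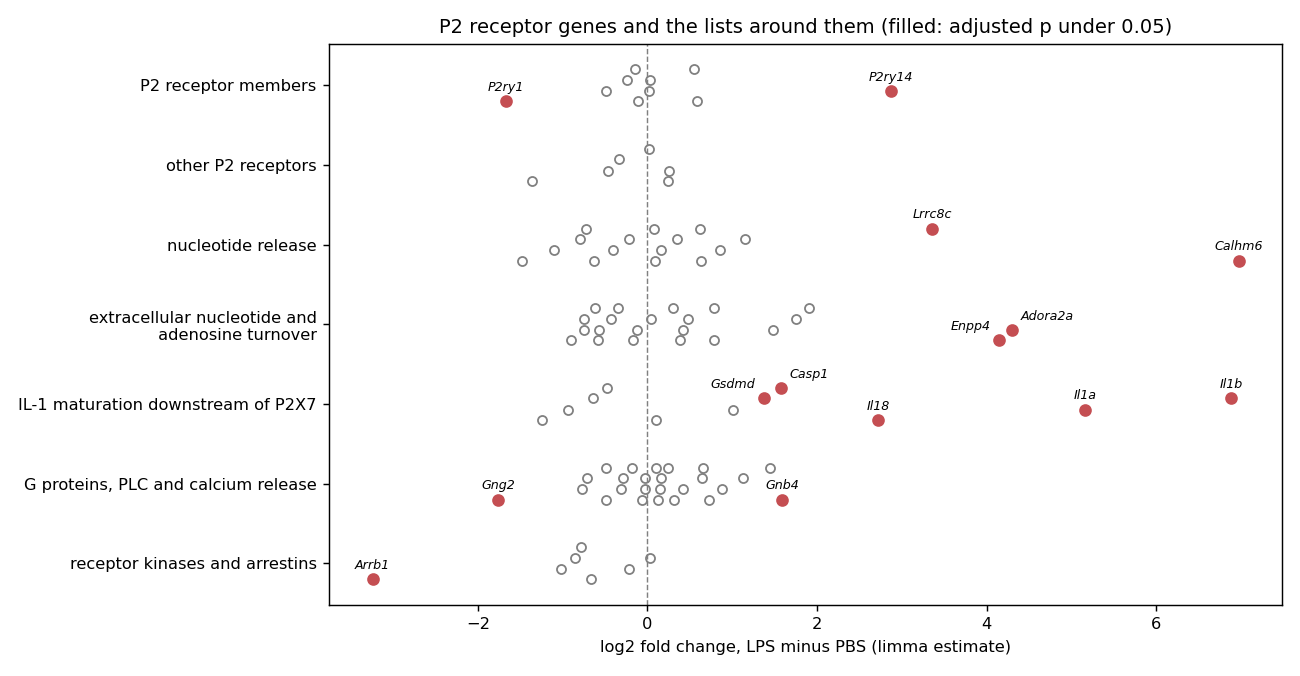
Log2 fold change (LPS minus PBS, horizontal axis) of every measured gene of the P2 receptor set and of the lists around it (rows), with points spread vertically for visibility and filled, named points for genes with an adjusted p under 0.05 from limma. The P2 receptors have 1 filled point on either side of 0, the IL-1 maturation list has 5 on the right, and the receptor kinases and arrestins have *Arrb1* at −3.24. Genes not above background are drawn in the same way as the others.

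Levels of markers of other cells were set beside these results. Platelets and their precursors are known for *P2ry1*, *P2ry12* and *P2rx1*. The summed normalized signal of 7 platelet and megakaryocyte markers was 6076 and 5590 with PBS against 5082 and 4628 with LPS, lower on both LPS arrays. The fall of the sum is mainly that of *Treml1*, with a mean log2 signal of 10.61 with PBS and 8.59 with LPS. *Treml1* was above background on both PBS arrays and on no LPS array, and did not pass the test (limma adjusted p = 0.0635). With a filter on dim probes, though, *Treml1* was called lower, where 4.50% of all genes kept by the filter were. *Gp1ba*, the only marker of the list above background on all 4 arrays, had a log2 fold change of 0.27 (limma adjusted p = 0.721), and *Gp9* and *Itga2b* were not above background on any array. The sum of 7 T cell markers was 9531 and 9700 with PBS against 12996 and 15922 with LPS. Its rise is mainly that of *Lck*, the 1 marker called higher and above background on the LPS arrays only. The mean log2 signal of *Lck* was 8.91 with PBS and 12.52 with LPS. The log2 fold changes of *Cd3e* and *Thy1* were −0.43 and −0.13, and those of *Cd8a* and *Cd3g* 0.53 and 0.32, none past the test. *Cd3d* and *Cd5* were not above background on any array. The sum of 4 NK cell markers was 5714 to 7910 with PBS and 14741 to 15431 with LPS, and it is mainly the signal of *Eomes*, the only one of them above background on all arrays (log2 signal 12.52 with PBS and 13.79 with LPS, limma adjusted p = 0.0581). *Ncr1* and *Klrb1c* were not above background on any array. With the filter on dim probes, *Eomes* was called higher, where 5.37% of all genes kept by the filter were.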

How the data were processed

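Macrophage RNA of 4 samples, 2 with PBS and 2 with LPS, was measured on 1 array each. The authors deposited a table of signal intensity per probe, a detection p-value and a flag of 0 or a negative number, which no source explains. The deposited flag served only to leave probes out in an alternative. The intensities were taken as background-subtracted, since 60 of them, on LPS replicate 1, are not above 0. A second deposited table holds the same intensity times 1 constant per array (0.869, 0.972, 1.29 and 0.959) and served as an alternative. No source used here names the scanner or the background method.

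Symbols were updated through RefSeq synonyms; of 26423 probes, 246 had several symbols and 3362 had none and stayed unnamed. Signals were quantile-normalized, converted to log2 and fitted with limma 3.58.1 in R 4.3.3 (lmFit, eBayes) with 2 residual degrees of freedom and a prior of 3.11, with no filter on dim probes. The number of arrays limits the precision. The methods name no test for the arrays; the t-test the study names for other data was run as an alternative.

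Members, lists and motifs were chosen with earlier results of these data known. Named were all members, every other P2 receptor measured, the first 2 genes of each list, per list up to 4 called genes of greatest change, and markers not above background. *Gsdmd*, *Lck*, *Treml1*, *Mbnl1*, *Kcnk6*, *Pycard*, *Txnip*, *Grk4* and markers above background were named after their values were seen. Alternatives covered background correction, scaling, filters, the probe rule, the replicate block, the variance trend, the t-test and dropping each array in turn. Some genes are counted but not reported by name.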

Additional observations from a re-analysis of the deposited data

How the results depend on the processing

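*P2ry14* kept its sign under all 15 alternatives and passed the test under 12, and *P2ry1* kept its sign under all 15 and passed under 10. With the methods' t-test, which gives the same log2 fold changes of 2.88 and −1.67, the adjusted p-values were 0.164 and 0.196, the highest of their ranges over the alternatives (from 0.00413 and 0.0175), and 0 members were higher and 0 lower past the test. That t-test called 0 genes higher and 0 lower after Benjamini-Hochberg adjustment, while an unadjusted p under 0.05 was reached by 2266 genes that were higher and 1453 that were lower, both members among them. With 1 array left out in turn, 0 to 1 members were higher and 0 lower, with log2 fold changes of 2.82 to 3.02 for *P2ry14* and −1.82 to −1.54 for *P2ry1*. Over all genes, 39 to 415 were then higher and 1 to 641 lower, against 642 and 462. Fewer arrays and residual degrees of freedom enter these fits.

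Scaling to the 75th percentile called 398 genes higher and 131 lower (75.2% higher, against 58.2%), the signals multiplied by the deposited constants 327 higher and 111 lower (74.7%), and cyclic loess 532 and 259 (67.3%), with the same 2 members called; the cause was not tested. Among members that did not pass the test, the sign changed under 3 alternatives for *P2rx4*, 2 for *P2ry2* and 4 for *P2ry12*.

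The replicate numbers are shared between the groups, but with 2 pairs they do not pair the samples by themselves. The differences between replicates 1 and 2 correlated at r = 0.239 between the groups across genes, which are not independent replicates. With the replicate block, 651 genes were higher and 514 lower, and both members kept their calls (adjusted p = 0.0189 for *P2ry14* and 0.0335 for *P2ry1* from limma). Differences of dim probes such as *P2ry10* were not measurable above background.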
